A study of Homo sapiens with 6 samples.

Results

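The genes described here encode the cytosolic translation factors: the initiation factors, the elongation factors, the release factors and the poly(A)-binding proteins. They were taken by name, as every gene whose symbol starts with EIF followed by a digit from 1 to 6, EEF followed by 1 or 2, or PABPC followed by a digit, together with ETF1, GSPT1 and GSPT2. This rule found 75 genes among the 19089 listed in the 6 libraries. EIF1AY, on the Y chromosome, was counted but is not described, which left 74. The rule also takes in relatives that are not general translation factors, such as the exon junction helicase EIF4A3, the kinases of eIF2 and a readthrough model of EEF1E1.

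Transcripts with a poly(A) tail were sequenced from 3 human hepatocellular carcinoma lines, Hep3B, HCCLM3 and MHCC97H, once from whole cells (mRNA) and once from ribosome-nascent chain complexes (RNC-mRNA), which hold the transcripts in translation. The medium was MEM with sodium pyruvate and 15% fetal bovine serum for Hep3B and DMEM with 10% serum for the other lines, each with penicillin, streptomycin and ciprofloxacin. Each line and fraction had 1 library, a pool of equal amounts from 3 cultures, so there were 6 groups with no replicates. HCCLM3 and MHCC97H share a parental line and are not independent of each other, and line and medium cannot be told apart.

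A ribosome reaches a start codon through a sequence of factors. The eIF4 proteins bind the cap and unwind the leader, eIF3 and the eIF2 complex with its initiator tRNA bring in the small subunit, and eIF1, eIF1A, eIF5 and eIF5B select the start codon and join the large subunit. The eEF1 complex then delivers each aminoacyl-tRNA, eEF2 moves the ribosome by a codon, and ETF1 with a GSPT partner ends the chain. Many mRNAs of this machinery start with a C followed by an unbroken run of pyrimidines, the terminal oligopyrimidine or TOP motif, through which mTOR and the RNA-binding protein LARP1 are known to control their translation.

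The gene tables held 119086844 to 147788269 reads per library, of which 3113877 to 5790040 belonged to the translation factors. Tables carry the letter A or C. By elimination A was taken as mRNA and C as RNC-mRNA, which no label says, and an exchange would turn the sign of every ratio of the fractions below. Of 9 hepatocyte and hepatoma markers, ALB stood at 4164 RPKM in Hep3B mRNA against 1.93 and 12 in HCCLM3 and MHCC97H, while KRT8 stood at 694, 1824 and 1700. Of 14 markers of leukocytes, endothelium and fibroblasts 7 stood below 1 RPKM in all libraries, among them PTPRC, CD3E, CDH5, VWF and COL1A1. Others did not, since CD68 stood at 46 to 81.6 RPKM in every library, LYZ at 78.3 and 163 and PDGFRB at 9.02 and 11.1 in Hep3B, and PECAM1 at 6.83 and 6.49 in MHCC97H. The summed level ran from 48.8 to 247 RPKM for the 5 leukocyte markers, from 0.519 to 8.68 for the 4 endothelial and from 0.749 to 11.5 for the 5 fibroblast markers, and their part in the line differences was not tested. Some genes have near-identical copies between which reads could be split or shared, so their values are uncertain, namely EIF3C with EIF3CL, EIF5A with EIF5AL1, PABPC1 with PABPC3, and EEF1A1 with its many processed pseudogenes. Reads could also be split between EEF1E1 and its readthrough model EEF1E1-MUTED, which had 721 and 1939 reads in Hep3B mRNA, so both are uncertain too. Of the 74 genes, 6 stayed under 1 RPKM (reads scaled to gene-model length in kilobases and to library size) in all libraries. EIF2S3L, a copy of the eIF2 gamma gene, had 197 and 233 reads in Hep3B mRNA and RNC-mRNA and at most 15 in the other libraries. PABPC4L had 249 and 129 reads in Hep3B and at most 1 elsewhere. EIF4E3 had 87 to 417 reads, and EIF4E1B, PABPC1L2A and PABPC5 had 5 or fewer in every library. The other 68 had a mean of at least 1 RPKM and entered the tests.

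The bases at the annotated start are shown for 10 genes, because the line differences reported below were divided by whether a pyrimidine run stands there. Each line gives 35 bases before the start and 15 from it onward, in the direction of transcription, from RefSeq on GRCh38.p14, and capitals mark the run that begins at the start itself. EIF4A1 and PABPC1L have no such run and are shown for contrast, EIF4A1 beside its close paralog EIF4A2, and PABPC1L because it was the translation factor that passed the test between the fractions.

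EEF1A1 at chr6:73521018-73521067, minus strand: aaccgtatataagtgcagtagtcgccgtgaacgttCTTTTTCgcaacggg
EEF1B2 at chr2:206159860-206159909, plus strand: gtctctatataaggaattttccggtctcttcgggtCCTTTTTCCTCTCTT
EEF2 at chr19:3985449-3985498, minus strand: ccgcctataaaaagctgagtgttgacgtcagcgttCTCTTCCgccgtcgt
EIF2S3 at chrX:24054921-24054970, plus strand: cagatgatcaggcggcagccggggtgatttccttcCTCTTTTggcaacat
EIF3F at chr11:7987302-7987351, plus strand: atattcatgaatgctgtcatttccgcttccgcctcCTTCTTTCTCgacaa
EIF3K at chr19:38619153-38619202, plus strand: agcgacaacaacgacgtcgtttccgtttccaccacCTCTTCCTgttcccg
EIF4A2 at chr3:186783542-186783591, plus strand: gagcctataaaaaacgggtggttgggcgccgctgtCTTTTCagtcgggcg
EIF4B at chr12:53006421-53006470, plus strand: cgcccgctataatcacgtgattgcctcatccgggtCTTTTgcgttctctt
EIF4A1 at chr17:7572790-7572839, plus strand: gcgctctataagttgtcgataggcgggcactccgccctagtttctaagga
PABPC1L at chr20:44910025-44910074, plus strand: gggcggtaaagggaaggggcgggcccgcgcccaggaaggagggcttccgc

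The translation factors took 2.75 and 3.06% of the summed RPKM in mRNA and RNC-mRNA of Hep3B, against 2.17 and 2.20% in HCCLM3 and 2.21 and 2.18% in MHCC97H. That gap lay in the elongation factors. EEF1A1, EEF1B2, EEF1D, EEF1G and EEF2 together held 54.4 and 59.7% of the translation factor RPKM in Hep3B mRNA and RNC-mRNA, 35.3 and 35.5% in HCCLM3 and 36.8 and 34.7% in MHCC97H. Levels of the tested genes ran from 1.17 RPKM for EIF5A2 to 2863 for EEF2, both in Hep3B RNC-mRNA. EEF1A1 was the highest in 5 of the 6 libraries and EEF2 in Hep3B RNC-mRNA, whereas the cap-binding protein EIF4E stood at 3.19 to 6.10 RPKM and the kinases EIF2AK2, EIF2AK3 and EIF2AK4 at 1.39 to 13.1.

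**Figure D1:**
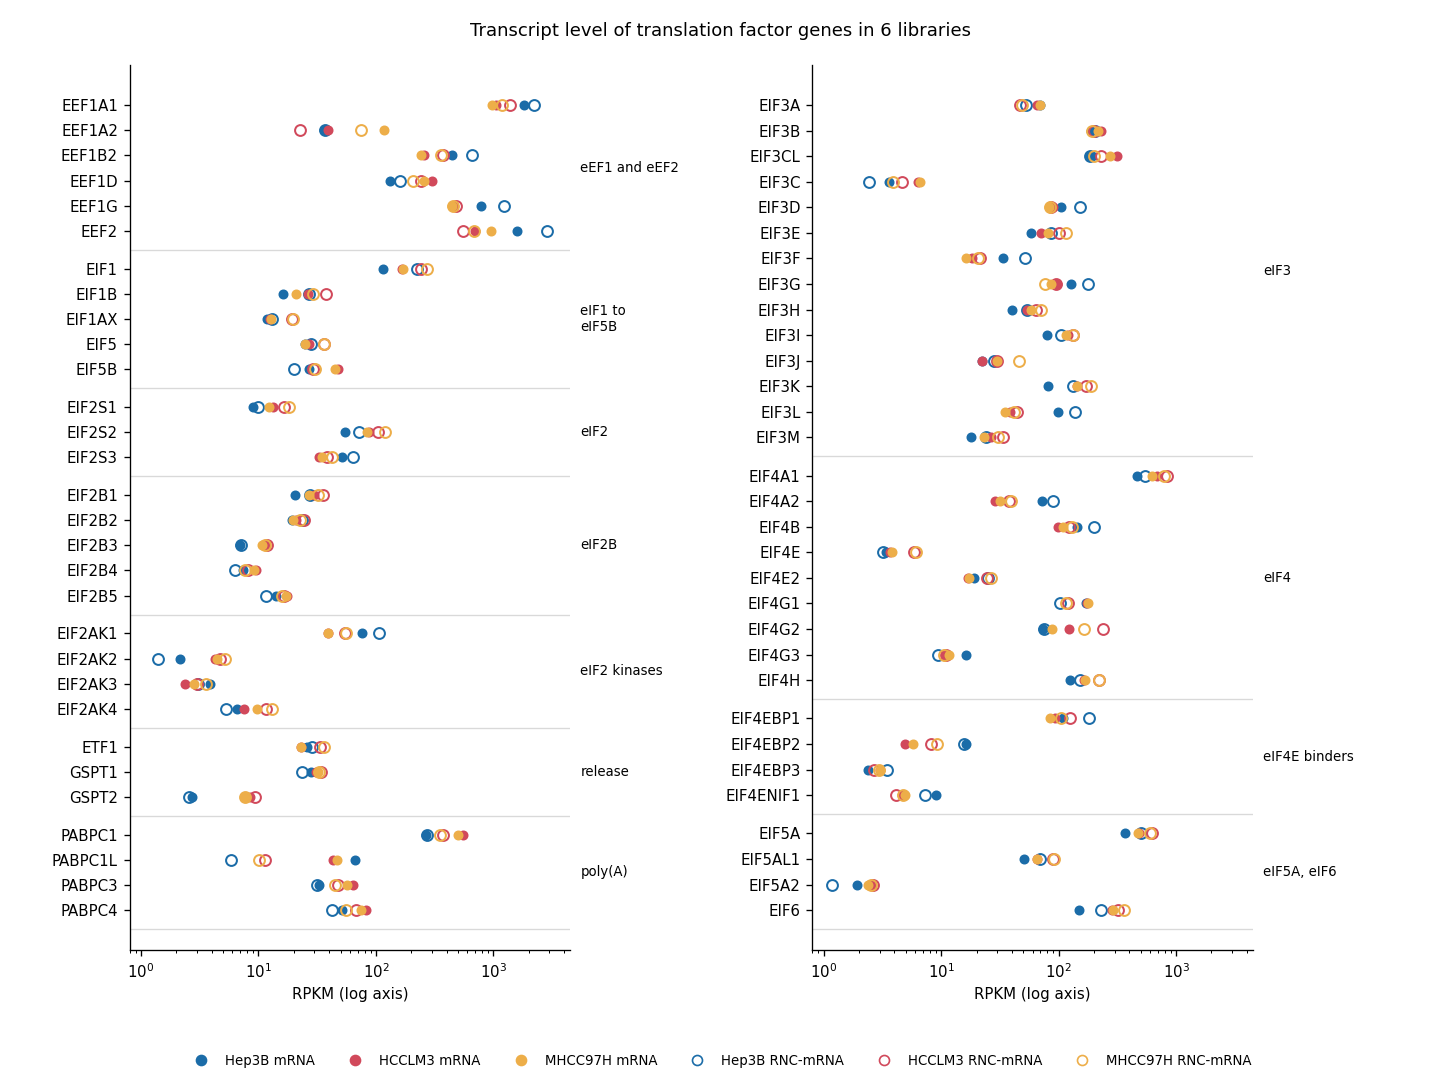
RPKM of the translation factor genes in the 6 libraries, on a log axis and grouped by role, with filled points for mRNA, open points for RNC-mRNA and a colour for each line. EEF2 and EEF1G have both Hep3B points to the right of those of the other lines, and PABPC1L has its 3 open points well to the left of its filled ones.

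The first comparison asked which translation factor mRNAs were over- or under-represented on ribosomes, with the 3 lines as the only replicates of the fractions. PABPC1L, which encodes the poly(A)-binding protein known from vertebrate oocytes, was the one translation factor that passed the test, and it was lower in RNC-mRNA. It stood at 67 RPKM in Hep3B mRNA and 5.88 in its RNC-mRNA, at 43 and 11.3 in HCCLM3 and at 46.3 and 10.2 in MHCC97H. The 3 RNC-mRNA libraries lay below all 3 mRNA libraries. The log2 ratio of RNC-mRNA to mRNA was -2.57 with a standard error of 0.31, and the adjusted p was 0.0419 in edgeR's quasi-likelihood test with the line as a block and Benjamini-Hochberg adjustment over all 11905 genes tested. This is an unadjusted p of 0.000757, and the p-values measure the spread between lines, of which 1 pair is related. Without the block the adjusted p was 0.189, and over all alternative settings it ranged from 2.37e-15 to 0.189, while the log2 ratio stayed between -2.84 and -2.2.

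Of the 68 tested, 0 passed as higher in RNC-mRNA and 1 as lower, where 0.0672% of all genes tested passed as higher and 2.65% as lower. At an unadjusted p under 0.05 there were 19 higher and 6 lower, beside 12.9 and 15.2% of all genes, against which the counts of single roles below are also to be read. DESeq2 called 11 higher and 5 lower, beside 5.56 and 10.9%. Without Hep3B, edgeR called 30 higher and 19 lower, beside 35.0 and 34.1%, a fit that rests on the related pair HCCLM3 and MHCC97H, and without either of those the counts stayed at 0 and 1. The median log2 ratio over the 68 was 0.24, against 0.04 over all genes tested.

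Single lines showed the same order of sizes, with no test because each value compares 2 libraries. The median log2 ratio of RNC-mRNA to mRNA over the 68 genes was 0.28 in Hep3B, 0.24 in HCCLM3 and 0.26 in MHCC97H, beside -0.03, 0.17 and 0.16 over all genes at 1 RPKM in both fractions. The ratio was positive in all 3 lines for 38 of the 68 and negative in all 3 for 10, beside 34.9 and 20.2% of the 9662 genes at 1 RPKM in all libraries. With each line shifted to a median of 0 the counts were 34 and 16, beside 25.9 and 26.9%. No translation factor reached a ratio of 2 in a line, where 1.89% of all genes did in Hep3B, 0.842% in HCCLM3 and 0.464% in MHCC97H. PABPC1L was the single gene at a ratio of 0.5 or lower in each line, beside 7.73, 2.47 and 2.68% of all genes. From counting alone the 95% half-width of such a log2 ratio ran from 0.00355 for EEF1A1 to 0.242 for EIF4EBP3, which leaves out all variation between cultures and preparations.

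**Figure D2:**
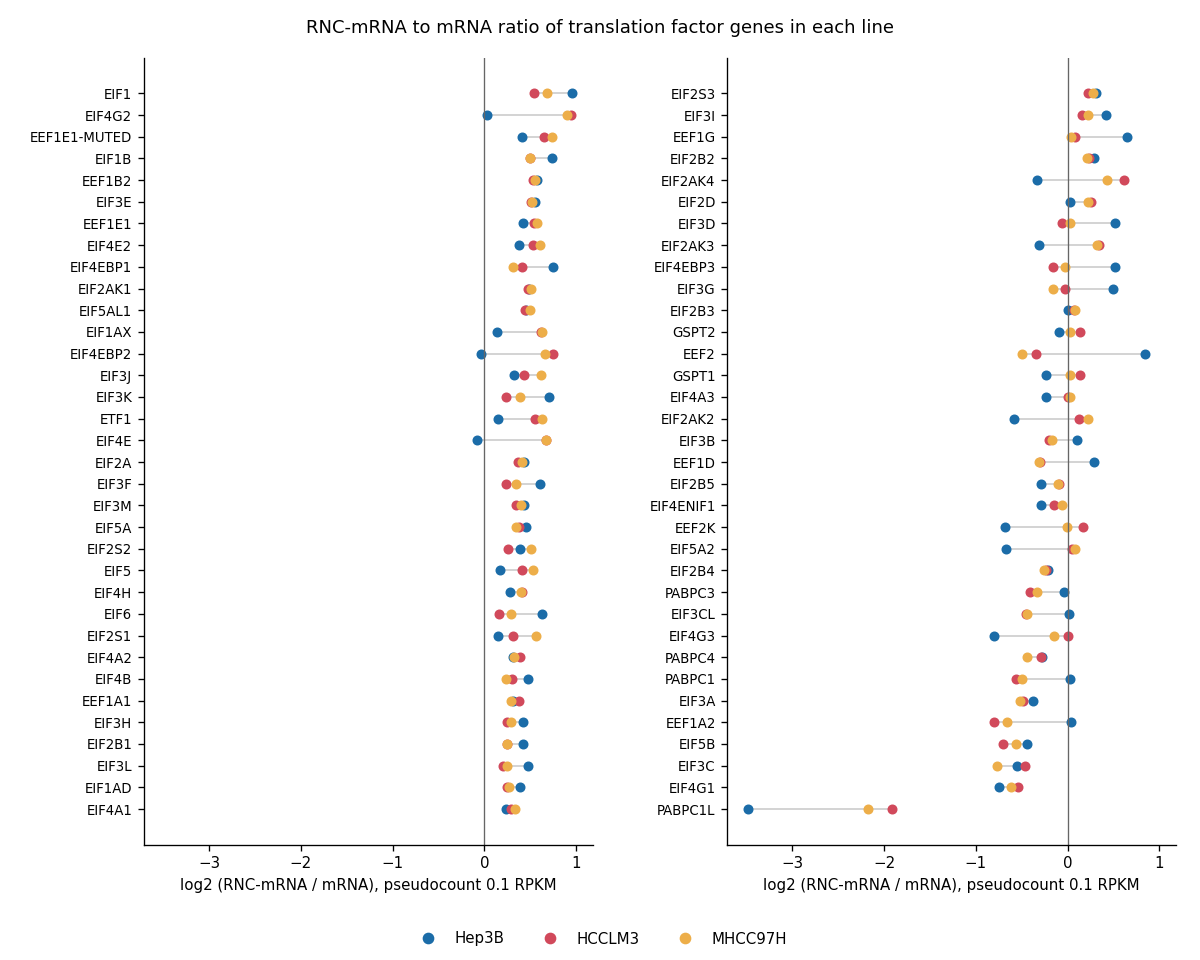
Log2 ratio of RNC-mRNA to mRNA of the 68 tested genes in Hep3B, HCCLM3 and MHCC97H, ordered by their mean, with a grey line joining the 3 lines of each gene. Most points lie between -0.8 and 1.0, PABPC1L stands alone at -3.49, -1.92 and -2.17, and EEF2 spreads from 0.84 in Hep3B to -0.49 in MHCC97H.

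The 4 poly(A)-binding proteins tested were on the low side, with a median log2 ratio of -0.38 in the fit over the 3 lines. In that fit 0 of 4 were above 0, beside 6415 of all 11905 genes tested. PABPC1, the main cytoplasmic poly(A)-binding protein, stood at 267 and 273 RPKM in Hep3B mRNA and RNC-mRNA, at 557 and 376 in HCCLM3 and at 498 and 352 in MHCC97H. Its fractions were level in Hep3B and RNC-mRNA was the lower in the other lines, so that the log2 ratio of -0.39 did not pass (edgeR adjusted p = 0.345). PABPC4, a relative induced in activated T cells, stood at 51 and 42, 82.6 and 67.4, and 75 and 55.2 RPKM, with RNC-mRNA lower in each line (log2 ratio -0.38, edgeR adjusted p = 0.165). PABPC3, an intronless copy of PABPC1, had log2 ratios of -0.04, -0.41 and -0.33 in Hep3B, HCCLM3 and MHCC97H, on 13346 to 25598 reads per library that may belong in part to PABPC1.

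Among the scaffold proteins of the cap complex, EIF4G1 and EIF4G2 stood on opposite sides. EIF4G1, which bridges the cap-binding protein, the helicase and eIF3, stood at 170.5 RPKM in Hep3B mRNA and 102 in RNC-mRNA, at 174 and 119 in HCCLM3 and at 177 and 115 in MHCC97H. All 3 RNC-mRNA libraries lay below all 3 mRNA libraries, and the log2 ratio of -0.67 (SE 0.13) had an adjusted p of 0.0737 in edgeR and of 0.000192 in DESeq2. EIF4G2, a relative that lacks the binding site for EIF4E, stood at 73.3 and 74.5, 123 and 237, and 88.2 and 165 RPKM. Its fractions were level in Hep3B and RNC-mRNA was the higher in HCCLM3 and MHCC97H, with log2 ratios of 0.02, 0.95 and 0.90 (over the lines 0.59, edgeR adjusted p = 0.146). The RPKM of EIF4G1 over that of EIF4G2 therefore went from 2.33 in mRNA to 1.37 in RNC-mRNA in Hep3B, from 1.42 to 0.504 in HCCLM3 and from 2.01 to 0.70 in MHCC97H, a ratio within a library that no scaling moves.

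Of the other cap-complex genes most had small positive ratios. EIF4A1, the main RNA helicase of initiation, had log2 ratios of 0.24, 0.29 and 0.33 in Hep3B, HCCLM3 and MHCC97H, and its paralog EIF4A2 had 0.32, 0.39 and 0.32. EIF4E, the cap-binding protein, stood at 3.39 and 3.19 RPKM in Hep3B, 3.67 and 5.92 in HCCLM3 and 3.80 and 6.10 in MHCC97H, with log2 ratios of -0.08, 0.68 and 0.67. EIF4G3, the third scaffold protein, had -0.81, 0.00 and -0.15. The EIF4E gene model of 11523 bases was the longest among the translation factors. Of the 9 genes of this list that were tested, 0 passed in either direction, with a median log2 ratio of 0.30 and 2 of 9 below 0, and 3 were higher and 1 lower at an unadjusted p under 0.05.

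The repressors that bind EIF4E differed in sign, and 0 of 4 passed. EIF4EBP1, the mTOR-controlled binding protein, stood at 108 and 182, 94.1 and 125, and 83.7 and 104 RPKM in mRNA and RNC-mRNA of Hep3B, HCCLM3 and MHCC97H, with RNC-mRNA higher in each line (log2 ratio 0.45, edgeR adjusted p = 0.194). Its paralog EIF4EBP2 had log2 ratios of -0.03, 0.75 and 0.66. The ratio of EIF4EBP1 to EIF4E RPKM was 31.9 in Hep3B mRNA and 57.1 in its RNC-mRNA, but 25.7 and 21.1 in HCCLM3 and 22.0 and 17.1 in MHCC97H. The gene models have 1020 bases for EIF4EBP1 and 11523 for EIF4E. In Hep3B the median log2 ratio of RNC-mRNA to mRNA was 0.40 over all genes under 2 kb and -0.60 over those of 6 kb or more. The part of length in this shift was not tested.

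A list of 8 genes held the start codon factors EIF1, EIF1B, EIF1AX, EIF5 and EIF5B together with EIF1AD, EIF2A and EIF2D. The list was mostly on the high side, with 7 of 8 above 0 and a median log2 ratio of 0.35, yet 0 passed in edgeR. At an unadjusted p under 0.05, 5 of 8 were higher, EIF2A among them, and 1 lower, beside 12.9 and 15.2% of all genes. EIF1, which guards start codon fidelity, stood at 116 and 225 RPKM in Hep3B, 165 and 241 in HCCLM3 and 172 and 275 in MHCC97H. RNC-mRNA was the higher fraction in each line, and the lowest RNC-mRNA library lay above the highest mRNA library (log2 ratio 0.69, SE 0.18, edgeR adjusted p = 0.111, DESeq2 adjusted p = 0.0112). EIF1AX, the X-linked eIF1A gene, had log2 ratios of 0.14, 0.62 and 0.63, and EIF5, the partner that triggers GTP hydrolysis by eIF2, had 0.17, 0.41 and 0.53. EIF5B, which joins the large subunit, went the other way at 27.2 and 20.1, 47.3 and 28.9, and 45.1 and 30.5 RPKM (log2 ratio -0.61, SE 0.15, edgeR adjusted p = 0.0991, DESeq2 adjusted p = 0.0168).

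The 3 subunits of eIF2 had positive ratios in every line and did not pass, with a median log2 ratio of 0.31. EIF2S1, the alpha subunit that stress kinases phosphorylate, stood at 8.91 and 9.90 RPKM in Hep3B, 13.4 and 16.6 in HCCLM3 and 12.4 and 18.4 in MHCC97H (log2 ratio 0.31, edgeR adjusted p = 0.171). It was the lowest of the subunits, and the beta subunit EIF2S2 stood 6.17 times as high in Hep3B mRNA, 6.55 times in HCCLM3 and 6.81 times in MHCC97H on the RPKM scale, and 7.25, 6.32 and 6.51 times in RNC-mRNA. The 5 subunits of eIF2B, which reloads eIF2 with GTP, had a median log2 ratio of 0.01, with EIF2B1 the most abundant in each library at 20.3 to 35.4 RPKM.

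The kinases of eIF2 alpha differed between the lines. In Hep3B 3 of 4 had a log2 ratio below 0, with a median of -0.32, whereas 4 of 4 were above 0 in HCCLM3 and in MHCC97H, with medians of 0.41 and 0.38. Of the genes compared, 5448 of 10564 were below 0 in Hep3B, and 7192 of 10845 and 6987 of 10900 were above 0 in HCCLM3 and MHCC97H. EIF2AK4, the GCN2 kinase that senses uncharged tRNA, stood at 6.63 RPKM in Hep3B mRNA and 5.25 in RNC-mRNA, at 7.56 and 11.6 in HCCLM3 and at 9.71 and 13.1 in MHCC97H. EIF2AK3, the PERK kinase of endoplasmic reticulum stress, stood at 3.86 and 3.08, 2.36 and 3.01, and 2.82 and 3.54 RPKM. EIF2AK1, the heme-regulated kinase, was the exception with log2 ratios of 0.49, 0.47 and 0.51. In Hep3B EIF2AK2 had -0.59 with a gene model of 10042 bases, beside a median of -0.60 over all genes of 6 kb or more. EIF2AK3 and EIF2AK4, with models of 4646 and 5499 bases, had -0.32 and -0.33, beside -0.26 over all genes of 4 to 6 kb. The model of EIF2AK1 has 4463 bases. The part of length in these ratios was not tested. With each line shifted to a median of 0, EIF2AK2 in HCCLM3 moved below 0, from 0.13. The difference between lines was not tested, since each value compares single libraries and HCCLM3 and MHCC97H are related.

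The elongation factors also differed between the lines. All 6 had a positive log2 ratio in Hep3B, with a median of 0.44, and 3 of 6 in HCCLM3 and MHCC97H, with medians of -0.11 and -0.14. Of the genes compared, 5116 of 10564 were positive in Hep3B, 7192 of 10845 in HCCLM3 and 6987 of 10900 in MHCC97H. EEF2, the translocase, stood at 1601 RPKM in Hep3B mRNA and 2863 in its RNC-mRNA, at 699 and 548 in HCCLM3 and at 955 and 679 in MHCC97H. Its RNC-mRNA was the higher fraction in Hep3B alone, with log2 ratios of 0.84, -0.35 and -0.49, and over the lines the ratio of -0.05 (SE 0.39) had an edgeR adjusted p of 0.945 and turned to 0.18 without HCCLM3 and 0.24 without MHCC97H. EEF1G, a subunit of the exchange factor, stood at 780.1 and 1225, 457 and 482, and 446 and 457 RPKM. EEF1D, another exchange factor subunit, had log2 ratios of 0.28, -0.31 and -0.31, while EEF1B2, the catalytic exchange subunit, was steady at 0.58, 0.53 and 0.55 (over the lines 0.51, SE 0.13, edgeR adjusted p = 0.106). EEF1A1 was steady as well, at 0.31, 0.38 and 0.29.

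For eIF3, the scaffold of the small subunit, 0 of 14 listed genes passed in edgeR, and 3 were higher and 2 lower at an unadjusted p under 0.05. The median log2 ratio was 0.42 in Hep3B, 0.18 in HCCLM3 and 0.23 in MHCC97H. EIF3A, the largest subunit, stood at 68.8 and 53.1, 65.7 and 46.9, and 69.9 and 48.8 RPKM, and all RNC-mRNA libraries lay below all mRNA libraries (log2 ratio -0.50, SE 0.14, edgeR adjusted p = 0.121, DESeq2 adjusted p = 0.043). EIF3C went the same way with a log2 ratio of -0.65, but the near-identical EIF3CL model held 41.1 to 76.4 times its RPKM and had -0.33, so that the split between both is uncertain. EIF3G, an RNA-binding subunit, had log2 ratios of 0.49, -0.03 and -0.16, and its ratio over the lines of 0.06 turned to -0.24 without Hep3B (edgeR adjusted p = 0.00205). That fit rests on the related pair HCCLM3 and MHCC97H, and it called 34.1% of all genes lower.

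The remaining roles held no gene that passed. EIF5A, which helps ribosomes through hard peptide bonds, stood at 369 and 504, 482 and 623, and 474 and 602 RPKM, with a log2 ratio of 0.35 (edgeR adjusted p = 0.210), and may share reads with EIF5AL1. EIF6, which keeps the large subunit from joining early, had log2 ratios of 0.63, 0.16 and 0.29. ETF1, the release factor that reads stop codons, stood at 25.9 and 28.8, 22.9 and 33.5, and 23.1 and 35.8 RPKM (log2 ratio 0.41, edgeR adjusted p = 0.108), while its GTPase partners GSPT1 and GSPT2 had -0.06 and -0.02. The exon junction helicase EIF4A3 had -0.11, and EEF1E1 and EEF2K, which share the eEF name, had 0.49 and -0.21 without passing.

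Gene-model length moved with these ratios in Hep3B. Across genes of that line Spearman's rho between length and the log2 ratio was -0.556 over 10825 genes and -0.57 over the 68 translation factors, while in HCCLM3 it was -0.046 and 0.013 and in MHCC97H -0.105 and -0.024. These points share their 2 libraries and are not independent replicates, so no p is given. In Hep3B the 16 translation factors with models under 2 kb had a median log2 ratio of 0.47, beside 0.40 over all genes of that length, the 28 of 2 to 4 kb had 0.30 beside 0.07, the 17 of 4 to 6 kb had 0.03 beside -0.26, and the 7 of 6 kb or more had -0.08 beside -0.60. EEF2, with a model of 3164 bases and a ratio of 0.84, stood above the 90th percentile of 0.60 for its length class. So did EIF1 at 0.96 and EEF1G at 0.65. The long models of EIF4G1, EIF4G3, EIF2AK2 and EEF2K were among those with low Hep3B ratios. Other long models, EIF3F, EIF4G2, EIF4EBP2 and EIF4E, had 0.61, 0.02, -0.03 and -0.08. Of the 7 translation factors of 6 kb or more, 6 lay above the median of -0.60 over all genes of that length. EIF3F and EIF4G2 also lay above its 90th percentile of 0.0065. The part of length in the differences between lines was not tested.

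**Figure D3:**
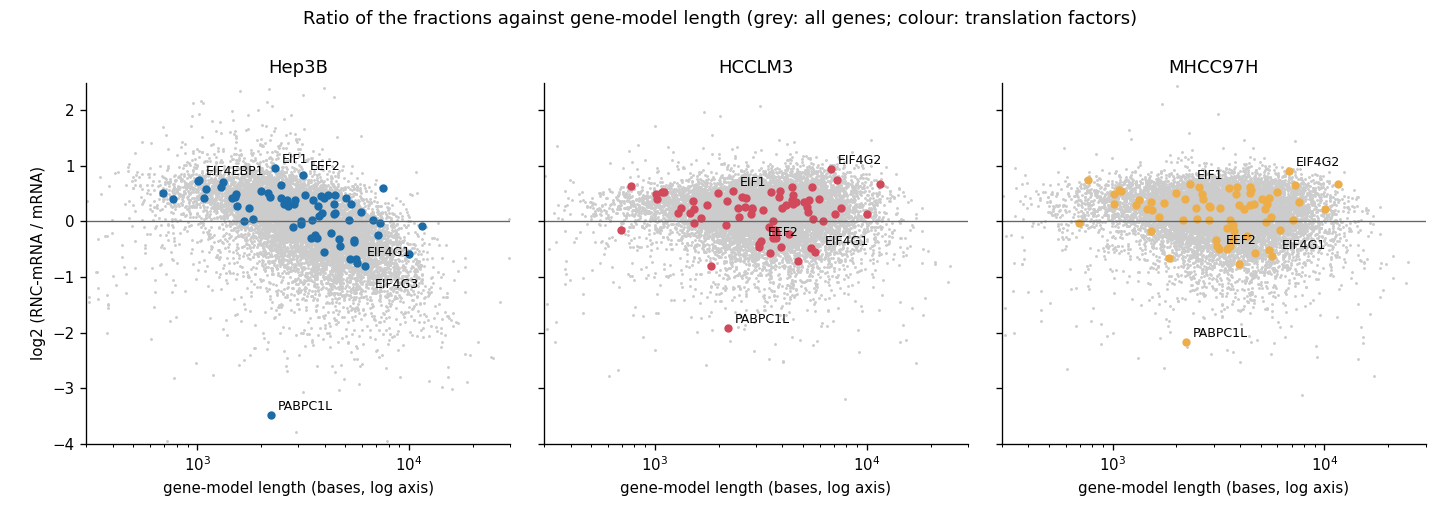
Log2 ratio of RNC-mRNA to mRNA against gene-model length (log axis) in each line, with grey points for all genes at 1 RPKM in both fractions and coloured points for translation factors. The cloud slopes down in Hep3B (rho -0.556) and is nearly flat in HCCLM3 (-0.046) and MHCC97H (-0.105), and PABPC1L is the lowest translation factor in each.

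The second comparison set the lines against each other within a fraction, as ratios of 1 library to 1 library with no test. EEF2, EIF3L and EIF4A2 were lower and GSPT2 was higher in HCCLM3 than in Hep3B by a ratio of at least 2 in both fractions. In MHCC97H the same held for EIF3F, EIF3L and EIF4A2 on the low side and for EEF1A2, EIF2AK2 and GSPT2 on the high side. In mRNA 3 of the 68 were higher and 4 lower in HCCLM3 by this size rule, where 18.7% of all genes were higher and 21.3% lower, and in MHCC97H again 3 were higher and 4 lower, beside 18.0 and 19.6%. In RNC-mRNA 7 were higher and 5 lower in HCCLM3, beside 25.5 and 17.7%, and 7 higher and 6 lower in MHCC97H, beside 25.2 and 17.4%. Both comparisons share the Hep3B libraries and are not independent. In RNC-mRNA all genes had a median log2 ratio over Hep3B of 0.24 in HCCLM3 and of 0.25 in MHCC97H, and with the libraries shifted to a median of 0 the RNC-mRNA counts became 3 higher and 11 lower, and 3 higher and 12 lower. In pooled cultures fewer cells that express a gene and less RNA per cell cannot be told apart.

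**Figure D4:**
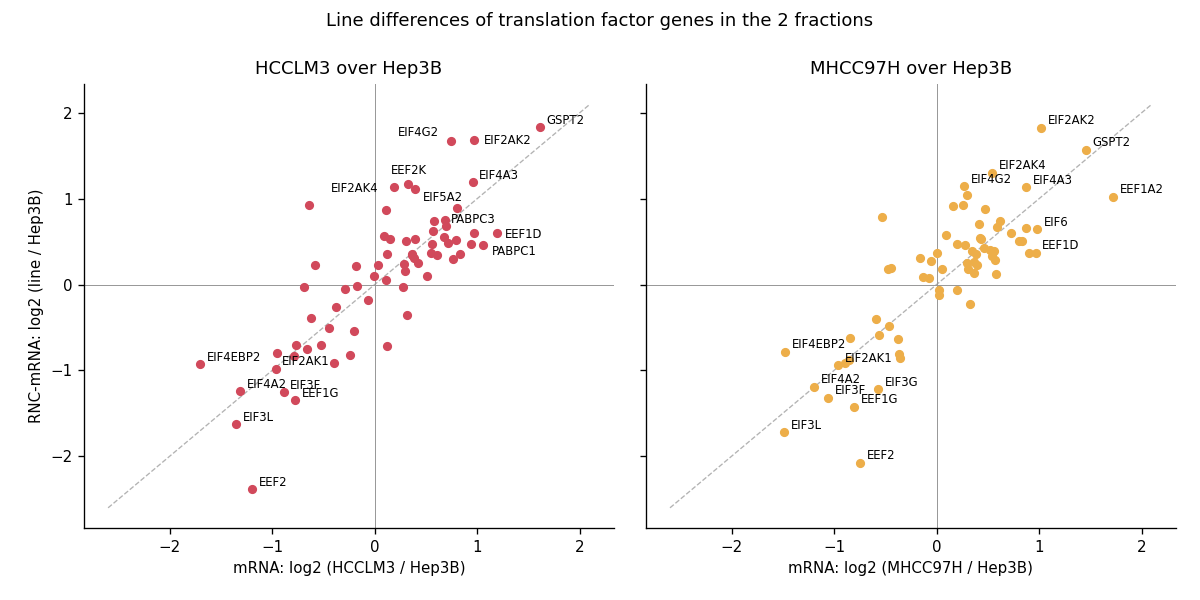
Log2 ratio of HCCLM3 (left) and MHCC97H (right) over Hep3B for the 68 tested genes, in mRNA (horizontal) and RNC-mRNA (vertical), with a dashed line where both fractions differ alike. EEF2 lies below the dashed line at -1.20 and -2.38 in HCCLM3 and at -0.75 and -2.08 in MHCC97H, and GSPT2 lies high in both panels.

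In RNC-mRNA the widest line difference was that of an elongation factor. EEF2 was 2.29 times as high in Hep3B as in HCCLM3 in mRNA and 5.22 times in RNC-mRNA, and 1.68 and 4.22 times as high as in MHCC97H. Both RNC-mRNA differences passed a ratio of 4, a size at which 9.74 and 9.55% of all genes were lower and 11.1 and 11.0% higher. No other of the 68 genes reached it against Hep3B, and in mRNA none did, where 9.92 and 9.44% of all genes were lower and 8.50 and 8.16% higher. EEF1A1, EEF1B2 and EEF1G were lower than in Hep3B in each line and fraction as well, with log2 ratios from -0.70 to -1.42, and EEF1D was higher in each, from 0.37 to 1.19.

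The paralogs of eEF1A differed between the related lines too. EEF1A2, the form of muscle and neurons, stood at 35.8 and 36.8 RPKM in Hep3B mRNA and RNC-mRNA, at 39.0 and 22.4 in HCCLM3 and at 118 and 74.9 in MHCC97H. MHCC97H stood apart from both other lines in each fraction. EEF1A2 was the single translation factor with a ratio of 2 or more between HCCLM3 and MHCC97H, lower in HCCLM3 with log2 ratios of -1.60 in mRNA and -1.74 in RNC-mRNA, beside 1.34 and 1.57% of all genes lower and 1.22 and 1.38% higher. The RPKM of EEF1A1 over that of EEF1A2 in mRNA was 50.5 for Hep3B, 27.2 for HCCLM3 and 8.21 for MHCC97H. In RNC-mRNA it was 60.8, 61.6 and 15.9, so that Hep3B and HCCLM3 were level there.

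The helicase paralogs shifted against each other, a ratio within a library that no scaling moves. EIF4A1 stood at 463 and 545 RPKM in Hep3B mRNA and RNC-mRNA, at 685 and 837 in HCCLM3 and at 626 and 789 in MHCC97H. EIF4A2 stood at 72 and 89.5, 28.9 and 37.9, and 31.4 and 39.2 RPKM. EIF4A1 was thus the lower and EIF4A2 the higher in Hep3B in both fractions, and EIF4A1 held 6.43 times the RPKM of EIF4A2 in Hep3B mRNA, 23.7 times in HCCLM3 and 19.9 times in MHCC97H, close to 6.09, 22.1 and 20.1 in RNC-mRNA. EIF4B, the partner that stimulates the helicase, stood at 143 and 199.6, 99.2 and 123, and 109.9 and 129 RPKM and was highest in Hep3B in both fractions.

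Subunits of eIF3 did not differ between lines as a block. EIF3L stood at 98.9 and 138 RPKM in Hep3B, 38.6 and 44.4 in HCCLM3 and 35.3 and 41.8 in MHCC97H, and EIF3F stood at 33.8 and 51.5, 18.2 and 21.6, and 16.2 and 20.6. Both subunits, which budding yeast lacks, were highest in Hep3B in each fraction. EIF3B, EIF3I and EIF3K were lower in Hep3B than in the other lines in mRNA, and the log2 ratios over Hep3B of the 14 listed genes ran from -1.35 to 0.83 in HCCLM3 mRNA and from -1.49 to 0.87 in MHCC97H mRNA. EIF3A varied least among the named subunits, at 65.7 to 69.9 RPKM in the 3 mRNA libraries. EIF3C, near-identical to EIF3CL, was the lowest subunit in every library, and the highest was EIF3B in Hep3B and EIF3CL in the other lines.

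Of the poly(A)-binding proteins, PABPC1 and PABPC4 were higher in HCCLM3 and MHCC97H than in Hep3B in both fractions. PABPC1 was 2.09 times as high in HCCLM3 mRNA as in Hep3B mRNA and 1.87 times as high in MHCC97H, and in RNC-mRNA the ratios were 1.38 and 1.29. PABPC4 stood at 1.62 and 1.47 times Hep3B in mRNA and 1.60 and 1.31 times in RNC-mRNA. PABPC1L was the higher in Hep3B mRNA but the lower in Hep3B RNC-mRNA.

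Kinases of eIF2 and a release factor differed by line as well. EIF2AK2, the PKR kinase that senses double-stranded RNA and is induced by interferon, stood at 2.14 and 1.39 RPKM in Hep3B, 4.28 and 4.69 in HCCLM3 and 4.44 and 5.2 in MHCC97H. EIF2AK1 went the other way at 76.5 and 107, 39.1 and 54.3, and 39.2 and 55.7 RPKM. It was the most abundant kinase in every library, and its mRNA level in Hep3B was 1.95 times that of HCCLM3 and of MHCC97H. GSPT2, the second eRF3 gene, stood at 2.71 and 2.54, 8.51 and 9.32, and 7.61 and 7.74 RPKM. GSPT1 was far steadier, so its RPKM over that of GSPT2 in mRNA was 10.3 for Hep3B, 3.65 for HCCLM3 and 4.23 for MHCC97H, and in RNC-mRNA it was 9.32, 3.67 and 4.24.

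Genes around eIF4E and the large subunit were also set apart by line. The mRNA level of EIF4EBP2 was 16.2 RPKM for Hep3B and 4.89 and 5.73 RPKM for HCCLM3 and MHCC97H, and its RNC-mRNA levels were 15.8, 8.27 and 9.14 RPKM. All 4 repressors that bind EIF4E had a lower RNC-mRNA level in HCCLM3 and in MHCC97H than in Hep3B, with median log2 ratios of -0.67 and -0.70. Over all genes these medians were 0.25 and 0.26, and 4720 and 4630 of 11719 genes compared were lower. In mRNA EIF4EBP3 was higher in both lines, with log2 ratios of 0.32 and 0.33. Its RNC-mRNA log2 ratio of -0.22 in MHCC97H rests on 308 reads against 377 in Hep3B. EIF6 stood at 148, 284 and 292 RPKM in mRNA and at 229, 317 and 358 in RNC-mRNA, higher in HCCLM3 and MHCC97H in both. EIF5A2, a paralog of EIF5A that lies in an amplified region of some tumours, stayed between 1.17 and 2.64 RPKM, and EIF5A held 189 to 432 times its level. EIF4A3 stood at 29.8, 57.8 and 54.6 RPKM in mRNA and was higher by a ratio of at least 2 in RNC-mRNA in both lines, at 2.29 and 2.19 times Hep3B.

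The line differences were then read against the bases at the annotated start. A run was counted where the start is a C and at least 4 pyrimidines follow it, on the sense strand only. A gene with several annotated starts was counted where any of them held it, as for EEF1B2, whose other start has no run. The RefSeq promoter table held 58 of the 74 translation factors, and 12 of these (20.7%) had the run, beside 5.14% of the 27305 genes of the promoter table and 7.49% of the tested genes with an entry. They were EEF1A1, EEF1B2, EEF2, EIF2A, EIF2D, EIF2S3, EIF3D, EIF3F, EIF3K, EIF3M, EIF4A2 and EIF4B. The letters TATAA, on either strand within the 35 bases before the start, occurred in 8 of the 58 (13.8%), beside 6.52% of all genes of the table, and 5 of those 8 were among the 12, namely EEF1A1, EEF1B2, EEF2, EIF4A2 and EIF4B. They are visible upstream of the runs printed above and cannot overlap them.

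Of the 12 genes with the run, 10 were lower in HCCLM3 than in Hep3B in mRNA and in RNC-mRNA, and 10 were lower in MHCC97H in both fractions. EIF3K and EIF3M were the exceptions in each case. Among all genes compared in mRNA, 5915 of 11871 were lower in HCCLM3 and 5798 of 11881 in MHCC97H. In RNC-mRNA 4720 and 4630 of 11719 were lower. Of all genes with the run, 339 of 661 and 336 of 662 were lower in mRNA. In RNC-mRNA 295 and 294 of 655 were. Over the 12 the median log2 ratio was -0.64 in HCCLM3 mRNA and -0.73 in its RNC-mRNA, and -0.57 and -0.74 in MHCC97H. Over the 41 tested genes with an entry and no run it was 0.32 and 0.37 in HCCLM3 and 0.30 and 0.39 in MHCC97H. Over all 661 genes with the run compared in HCCLM3 mRNA it was -0.06, and in MHCC97H mRNA -0.03 over 662. In RNC-mRNA it was 0.11 in HCCLM3 and 0.085 in MHCC97H over 655 such genes. Both values lay above 0 but below the medians of 0.26 and 0.27 over all 11719 genes compared. This division was made after the values were seen and, as all 4 ratios share the Hep3B libraries, it is a description with no test.

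**Figure D5:**
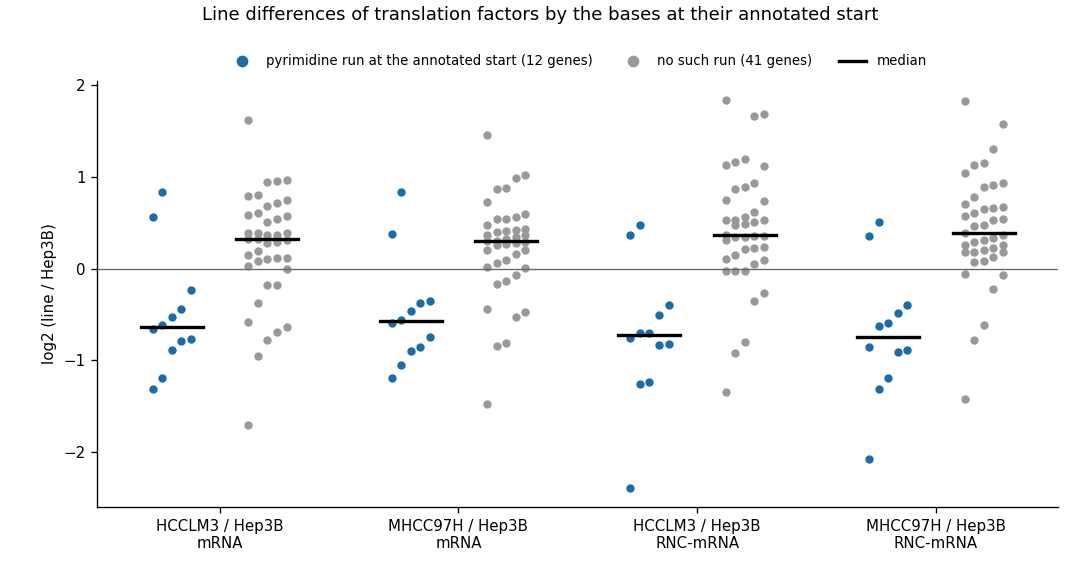
Log2 ratio of HCCLM3 and MHCC97H over Hep3B in each fraction for the 12 translation factors with a pyrimidine run at the annotated start (blue) and the 41 without (grey), with black bars for medians. In each of the 4 comparisons 10 blue points lie below 0, and their medians of -0.57 to -0.74 stand below the grey medians of 0.30 to 0.39.

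Between the fractions the same 12 genes were all positive in Hep3B, with a median log2 ratio of 0.46 against 0.10 for the 41 without the run. In HCCLM3 10 of the 12 were positive and in MHCC97H 11, with medians of 0.28 and 0.31 against 0.23 and 0.25. Of all genes compared, 5116 of 10564 were positive in Hep3B, 7192 of 10845 in HCCLM3 and 6987 of 10900 in MHCC97H. A second list, of 12 genes that the field knows as TOP mRNAs, shares EEF1A1, EEF1B2, EEF2, EIF2S3, EIF3F and EIF4B with the first and adds EEF1D, EEF1G, EIF3A, EIF3E, EIF3H and PABPC1. Of those added, EEF1G had a promoter entry without the run. EEF1D, EIF3A, EIF3E, EIF3H and PABPC1 had no entry, so whether they have the run was not read. Of this second list 0 passed between the fractions in edgeR. In mRNA 8 were lower in HCCLM3 and 7 in MHCC97H than in Hep3B, beside 5915 of 11871 and 5798 of 11881 genes compared. Every shared gene was lower in both lines. Among those added, EEF1G was lower in both and EIF3A in HCCLM3 alone, whereas EEF1D, EIF3E, EIF3H and PABPC1 were higher in both.

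Genes that act on these factors were read alongside. Of 22 tested partners and regulators 0 passed between the fractions in edgeR, and 8 were higher and 3 lower at an unadjusted p under 0.05, beside 12.9 and 15.2% of all genes. The nearest to passing was PPP1R15A, the stress-induced subunit of the eIF2 alpha phosphatase, at 16 and 22.9 RPKM in Hep3B, 34.1 and 76.8 in HCCLM3 and 29.5 and 72 in MHCC97H (log2 ratio 0.96, adjusted p = 0.0556). GCN1L1, the activator of GCN2, was next at 58.2 and 27.6, 49.8 and 35, and 57.1 and 34.5 RPKM (log2 ratio -0.81, edgeR adjusted p = 0.0588). MTOR, the kinase upstream of EIF4EBP1, stood at 26.3 RPKM in Hep3B mRNA against 8.97 and 10.8 in HCCLM3 and MHCC97H, whereas LARP1 stood at 62.9, 55.2 and 59.5. Of 7 tested translation factors of mitochondria 0 passed, and the nearest was the elongation factor GFM1 with a log2 ratio of -0.89 (edgeR adjusted p = 0.0524).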

How the data were processed

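Per the labels, libraries came from an NEBNext kit for mRNA, and per the design text each pools 3 cultures. The authors deposited 1 table per library, with a whole-number read count for each gene, and a gene that has no line was set to 0. The deposited RPKM values are these counts scaled by the authors to gene-model length and a library total, which ranged from 129948939 to 157181586 reads. The treatment of strand, shared reads and overlapping genes in counting, and the aligner, were not given in the sources used here. Genome build hg19 and edgeR are named in the submitters' processing notes.

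The translation factors and all gene lists were chosen with earlier results of these data known. The fractions were compared on the counts with edgeR 4.0.16 (glmQLFit and glmQLFTest, TMM scaling, line as a block). Genes whose mean RPKM reached 1 were tested, with p-values adjusted over all of them and a threshold of 0.05. Both fractions of a library pair come from the same line, which is the source of the pairing. Ratios within a line and between lines are log2 of (RPKM + 0.1), which understates those of low genes, where both fractions, or the higher line, reached 1 RPKM. Such single-library values have no test. Widths from counting cover counting error only. The edgeR step was tested on simulated data. DESeq2 1.42.0 was an alternative. Other alternatives were upper quartile and RLE scaling, other filters and pseudocounts, no block and each line left out.

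Genes named with values were a panel over all roles, those called, the widest line differences in each fraction, the most and least abundant subunit of each complex and the 6 low genes. Others, such as EIF3D, EIF3M, EIF4E2, EIF2A, EIF2D and the genes divided by their start, were named after their values were seen. Gene models that the lists hold under newer or other symbols and that matched no row were not analysed here. Of the 74 symbols 72 matched a current RefSeq symbol and 2 an older one, and 58 had a promoter entry.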

Additional observations from a re-analysis of the deposited data

Results flagged for a closer look

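For 17 of the 68 translation factors (25%) the fractions differed in opposite directions in Hep3B and in both other lines, beside 35.9% of the 9662 genes at 1 RPKM in all libraries. For 4 of them (5.88%) the log2 ratio was at least 0.25 in size in every line, beside 10.5% of all genes. The log2 ratio of RNC-mRNA to mRNA of EEF2 was 0.84 in Hep3B and -0.35 and -0.49 in HCCLM3 and MHCC97H. In the same order EEF1D had 0.28, -0.31 and -0.31. EIF2AK3 had -0.32, 0.34 and 0.32, and EIF2AK4 had -0.33, 0.62 and 0.43. The signs were the same with each line shifted to a median of 0 over all genes. The difference between lines was not tested, since each value compares single libraries. Gene-model length moved with the Hep3B ratios (rho -0.556 over all genes), and its part in these differences was not tested.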

How the results depend on the processing

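Counts of translation factors called between the fractions depended on the tool and on Hep3B, and the causes were not tested. DESeq2 called 11 higher and 5 lower, where over all genes it called 662 and 1300. No expression filter gave 2 higher, EEF1E1-MUTED and EIF4E2, and 431 and 1443 over all genes. Both fractions are paired by line, and no replicate block gave 0 higher and 0 lower, over all genes as well. Leaving out a line in turn gave 0 to 30 higher and 1 to 19 lower, and 3 to 3989 and 87 to 3881 over all genes, with the most calls without Hep3B and the fewest over all genes without HCCLM3. Among the named genes the direction turned in 12 values of 7 genes. Leaving out a line gave log2 ratios of -0.24 to 0.23 for EIF3G, -0.57 to 0.24 for EEF2, -0.088 to 0.36 for EEF1G, -0.24 to 0.034 for EIF2AK2 and -0.067 to 0.017 for GSPT2, with the turns without Hep3B for EIF3G, EEF1G and EIF2AK2, without MHCC97H for GSPT2 and without either other line for EEF2. No filter gave 0.091 for EEF2, 0.017 for EIF2AK2, 0.035 for EIF4A3, 0.080 for GSPT1 and 0.12 for GSPT2, and no replicate block gave 0.40 for EEF2. Another 310 values kept their direction and side of the threshold, 41 passed only under an alternative (30 without Hep3B and 11 with DESeq2), and PABPC1L lost its call without the block.

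Without a filter the median Hep3B log2 ratio of RNC-mRNA to mRNA was 0.16. Shifted to the median ratio it was 0.065 in HCCLM3 and 0.093 in MHCC97H, and with upper quartile scaling 0.14 in HCCLM3. The same shift gave RNC-mRNA medians over Hep3B of 0.034 in HCCLM3 and 0.052 in MHCC97H, with 3 higher and 11 lower and 3 higher and 12 lower by a ratio of 2. The share of RPKM without near-identical copies was 1.90 and 2.22% in Hep3B mRNA and RNC-mRNA, 1.46 and 1.49% in HCCLM3 and 1.55 and 1.53% in MHCC97H. Without EEF1A1 it was 2.18 and 2.49%, 1.87 and 1.84%, and 1.94 and 1.87%. As a share of reads it was 3.11 and 3.92%, 2.60 and 2.69%, and 2.54 and 2.57%. The other 172 values of this kind moved by less than 0.1 on the log2 scale or 1.5 times in a count. With 1 library per line and fraction, variation between cultures could not be measured at any depth.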
